A study of Mus musculus with 12 samples.

Results

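*Cdkn1a*, the gene for the cyclin-dependent kinase inhibitor p21, was examined beside 9 other genes of the p53 pathway in whole kidney, to see whether its higher level after SK-124 was accompanied by other p53 targets. The 10 genes were chosen by name, as *Cdkn1a*, *Mdm2*, *Ccng1*, *Trp53*, *Trp53inp1*, *Phlda3*, *Bax*, *Eda2r*, *Zmat3* and *Bbc3*, and all 10 were found among the 55401 gene identifiers. The choice followed from the level of *Cdkn1a* in these same mice, so the differences of the 10 genes between the groups are given as a description, with no p. SK-124 is a small-molecule inhibitor selective for the salt-inducible kinases SIK2 and SIK3. RNA came from whole kidneys of 8-week-old male C57BL6 mice, for which the labels name no engineered allele. In the control group 6 mice received vehicle (15% 2-hydroxypropyl-beta-cyclodextrin) and in the treated group 6 mice received SK-124 at 40 mg/kg, each as a single intraperitoneal injection. Each mouse gave 1 library.

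p53, encoded by *Trp53*, is a transcription factor that is held at a low level by the ubiquitin ligase MDM2 and that accumulates, mainly through protein stability, after DNA damage and other stresses. It then raises genes that stop the cell cycle (p21 above all), genes that promote apoptosis (*Bax*, *Bbc3*), genes that serve DNA repair and metabolism, and *Mdm2* itself, which closes a negative feedback loop. *Cdkn1a* is also controlled by many factors other than p53, and in the kidney it is known as a gene that tubular cells raise after injury.

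The 12 libraries were alike in depth, with expected counts summing to 19244227 to 19771802 per mouse. The 10 most abundant genes of each library took 39.9% to 43.2% of all counts in vehicle mice, 44.4% to 46.8% in SK-124 mice 1 to 3 and 38.6% to 40.2% in SK-124 mice 4 to 6, so results are also given for each set of 3 SK-124 mice where a call changes. Proximal tubule markers were abundant in every mouse (6 genes, summing to 7496 to 8414 CPM in vehicle mice and 6979 to 8801 CPM in SK-124 mice), as the tissue label states. CPM are counts scaled to library size, here corrected with TMM, a factor per library that sets most genes level between mice. Of the 14159 genes tested, 24.4% had a false discovery rate (FDR) under 0.05 in edgeR's quasi-likelihood test, 10.8% higher and 13.5% lower with SK-124. With library totals in place of TMM, the median log2 difference of all genes moved to -0.12 and the calls became 777 higher and 3058 lower, against 1536 and 1917. The values of the 2 groups did not overlap, with SK-124 higher, for 6.32% of genes tested, and with SK-124 lower for 6.65%.

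The sequence before the upstream start of *Cdkn1a* is shown because it holds matches to the p53 response element. A response element is a pair of decamers (10-base copies of the p53 consensus), here searched on both strands with a spacer of 0 to 13 bases and with no mismatch allowed, so that decamers off the consensus by a letter were not counted. RefSeq promoter windows (GRCm38.p6, 250 bases before to 50 after each start) were at hand for 8 of the 10 genes. Of 32851 windows of this kind for all genes, 24 (0.0731%) held such an exact pair, and among the 11 windows of the 8 genes the upstream window of *Cdkn1a* was the 1 that did. The 250 bases before that start, on the plus strand at chr17:29090729-29090978, read as follows, with the 2 exact decamers, and the decamer that adjoins the second, in capitals.
Cdkn1a upstream start: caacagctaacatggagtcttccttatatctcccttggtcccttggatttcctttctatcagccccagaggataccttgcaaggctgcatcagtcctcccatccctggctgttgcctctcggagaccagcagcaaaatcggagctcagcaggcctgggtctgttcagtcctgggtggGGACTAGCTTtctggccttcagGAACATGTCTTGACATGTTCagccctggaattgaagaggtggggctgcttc

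The spacer between the 2 exact decamers was 12 bases. Directly after the second of them, with a spacer of 0, stands a decamer that is off the consensus by 1 letter, so the same sequence also holds an adjoining pair, which can be read as the element in place of the spaced pair. A search for adjoining pairs with at most 1 mismatch, added after the data were seen, found such a pair in 29 of the 32851 windows (0.0883%), and in those of *Cdkn1a* and *Ccng1* among the 11.
Cdkn1a adjoining pair, chr17:29090928-29090947, plus strand: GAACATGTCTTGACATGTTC
Ccng1 adjoining pair, chr11:40755462-40755481, minus strand: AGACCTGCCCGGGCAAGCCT

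The spaced pair of *Cdkn1a* ends 42 bases before the start of the annotated transcript Cdkn1a-202 and 2832 bases before that of Cdkn1a-201, the next start downstream, and the adjoining pair ends 32 and 2822 bases before them. Single exact decamers are common, being in 8.36% of all windows, and were also found in the windows of *Bax*, *Ccng1*, *Mdm2* and *Trp53*. These are shown beside the 2 decamers of *Cdkn1a*, each with 10 bases on either side and the decamer in capitals, so that the letters of genes with a large and with no called difference can be set side by side.
Cdkn1a, first decamer, chr17:29090896-29090925, plus strand: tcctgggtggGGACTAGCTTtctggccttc
Cdkn1a, second decamer, chr17:29090918-29090947, plus strand: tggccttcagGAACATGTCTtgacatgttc
Mdm2, chr10:117710925-117710954, minus strand: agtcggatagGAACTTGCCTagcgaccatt
Ccng1, chr11:40755452-40755481, minus strand: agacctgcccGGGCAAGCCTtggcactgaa
Trp53, chr11:69580274-69580303, plus strand: acccacggaaGGACTTGCCCttacttgtta
Bax, chr7:45467080-45467109, minus strand: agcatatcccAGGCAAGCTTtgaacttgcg

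No wider region was searched, and p53 elements are also known in introns, as in *Mdm2*. Of other motifs searched on both strands, the cAMP response element TGACGTCA was in none of the 11 windows (1.79% of all windows), the FOXO motif GTAAACA was in windows of *Bbc3*, *Eda2r* and *Mdm2* (3.65%), and the Sp1 motif GGGCGG was in those of 6 genes, *Cdkn1a* included (35.7%). The E-box CACGTG was in windows of *Bax*, *Bbc3*, *Eda2r* and *Trp53* (7.15%), TGACG, which TGACGTCA contains, in windows of *Bbc3* and *Mdm2* (20.8%), and AGAACA, the core of glucocorticoid receptor sites, in none (18.97%). These are matches of letters. Of the 20 genes with an exact spaced element in a window, 5 were tested, and *Cdkn1a* and *Dnajc7*, a chaperone gene named after its value was seen, passed (*Dnajc7* log2 difference 0.18, standard error (SE) 0.05, FDR = 0.0201, edgeR's quasi-likelihood test). Among all genes tested 24.4% passed, and the choice of genes followed from the level of *Cdkn1a*, so nothing is read from this count.

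*Cdkn1a* (ENSMUSG00000023067.14, chr17:29090976-29100727, plus strand, GENCODE M21 on GRCm38) had 7.64 CPM at the lowest, 10.04 at the median and 10.4 at the highest in vehicle mice. In SK-124 mice it had 81.3, 107 and 126 CPM. Every SK-124 mouse stood far above every vehicle mouse, and the lowest vehicle value was in vehicle mouse 5. The means were 9.66 ± 1.05 and 104 ± 18.2 CPM (SD, n = 6 each), a log2 difference of 3.43 (SE 0.12), or 10.8-fold. This placed *Cdkn1a* at rank 16 of the 14159 genes tested, ordered from the most raised. With SK-124 mice 1 to 3 alone the log2 difference was 3.31, and with mice 4 to 6 alone it was 3.55. Behind these values lay 161 to 218 counts in vehicle mice and 1391 to 2481 in SK-124 mice. An unclassified gene on the opposite strand, AC167363.2, overlaps *Cdkn1a* and had at most 2 counts in any mouse, and the strand setting of the counting was not stated.

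RSEM's mean transcript length of *Cdkn1a*, weighted by the abundance of its transcripts, was 1862 to 1913 bases in vehicle mice (median 1904) and 1903 to 1911 in SK-124 mice (median 1907). The annotated transcript Cdkn1a-201, which starts downstream of the p53 element, is 1913 bases long, Cdkn1a-202 is 922, Cdkn1a-203 is 1172, Cdkn1a-204 is 958 and Cdkn1a-205 is 2080. The weighted length was thus near that of Cdkn1a-201 in both groups, although a mix of the others can give the same mean.

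**Figure D1:**
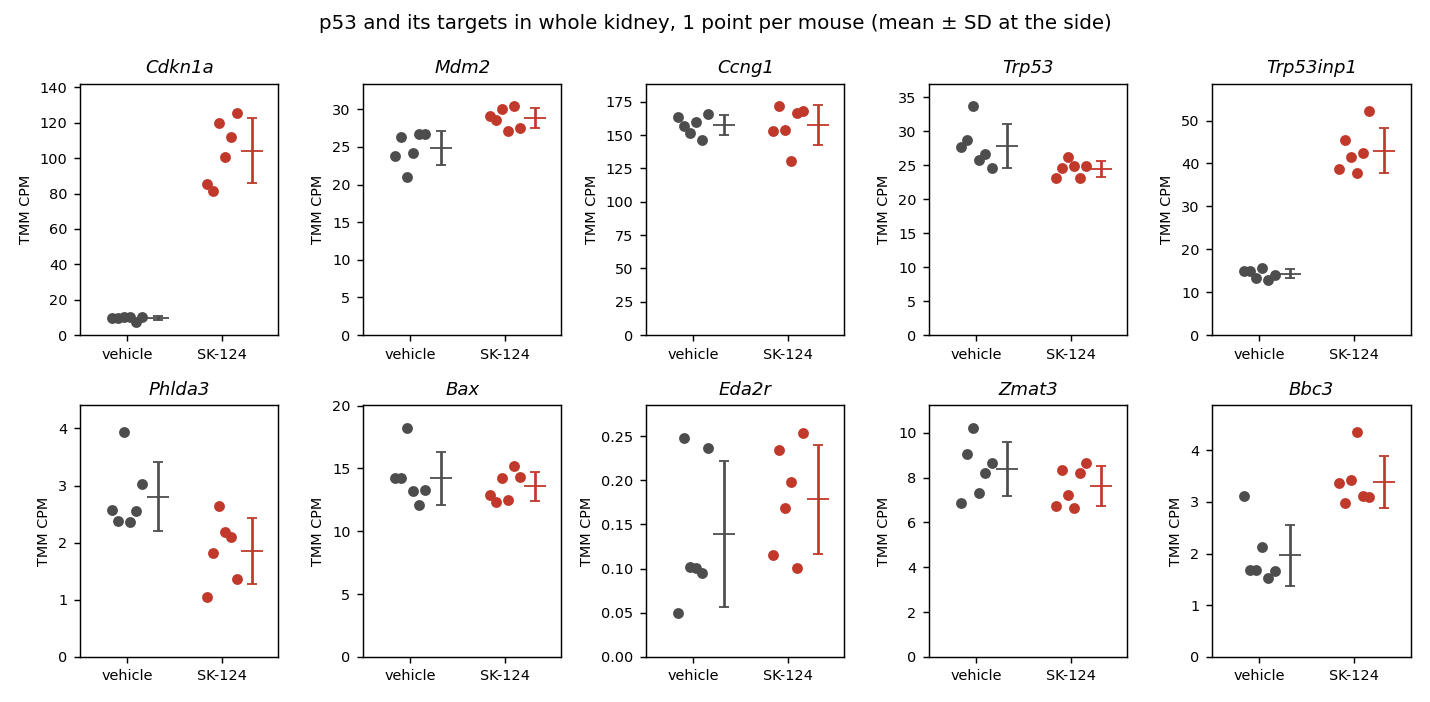
TMM-normalised CPM (y axes, from 0, a scale per gene) of the 10 genes in 6 vehicle mice (grey) and 6 SK-124 mice (red), 1 point per mouse, with the mean and SD beside the points. *Cdkn1a* and *Trp53inp1* stand apart between the groups by a wide margin and *Mdm2* by a narrow one, while *Ccng1*, *Bax* and *Zmat3* overlap and *Eda2r* stays under 0.26 CPM.

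The other genes are described beside *Cdkn1a* 1 by 1. The filter on low counts removed *Eda2r*, and of the 8 others tested, 3 were called higher (*Trp53inp1*, *Bbc3* and *Mdm2*), 1 lower (*Phlda3*) and 4 were not called, where 24.4% of all genes were called. Nothing is read from these counts, since the genes were chosen on this comparison. The median log2 difference of the 8 genes was -0.032, beside -0.0050 for all genes tested. The 2 groups did not overlap for *Cdkn1a*, *Trp53inp1* and *Mdm2*, in each case with SK-124 higher, beside 6.32% of all genes tested.

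*Trp53* itself (chr11:69580359-69591873, plus strand) had 24.5, 27.1 and 33.7 CPM at the lowest, median and highest in vehicle mice and 23.1, 24.7 and 26.2 CPM in SK-124 mice. The groups overlapped, and 2 of 6 SK-124 mice lay below all vehicle mice. Its log2 difference was -0.19 (SE 0.07), which was not called. It became a call when library totals replaced TMM (log2 difference -0.30), in limma on log2(TPM + 1) (-0.34) and log2(TPM + 0.1) (-0.36), and without vehicle mouse 6 (-0.22).

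*Mdm2* (chr10:117688875-117710758, minus strand), the negative regulator that p53 raises, had 21.04, 25.3 and 26.8 CPM in vehicle mice, again as lowest, median and highest. In SK-124 mice it had 27.1, 28.9 and 30.5 CPM. The lowest SK-124 mouse lay just above the highest vehicle mouse, and the means were 24.8 ± 2.24 and 28.8 ± 1.35 CPM (SD, n = 6 each), a log2 difference of 0.21 (SE 0.06) against 3.43 for *Cdkn1a*. The call depended on the scaling: it was lost with library totals (0.10) and in both limma fits on TPM (0.04 in each). It was also lost with SK-124 mice 1 to 3 alone (0.24, SE 0.083) or 4 to 6 alone (0.20, SE 0.086), fits with fewer mice and a larger SE. Leaving out any single mouse kept the call (log2 difference 0.17 to 0.24).

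*Ccng1* (chr11:40748552-40755311, minus strand), which encodes cyclin G1 and is among the most regular p53 targets in mouse tissue, was the most abundant of the other genes. It had 146, 158 and 166 CPM in vehicle mice and 131, 160 and 172 CPM in SK-124 mice. The SK-124 values spread around the vehicle values on both sides, and the log2 difference was 0.0010 (SE 0.06). With library totals it was -0.11, close to the shift of all genes in that fit.

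*Trp53inp1* (chr4:11156431-11174379, plus strand), a p53-induced nuclear protein with roles in autophagy and cell death, was the other gene with a large difference. It had 12.9, 14.5 and 15.6 CPM in vehicle mice and 37.8, 41.9 and 52.3 CPM in SK-124 mice. All 6 SK-124 mice exceeded all 6 vehicle mice, with means of 14.3 ± 1.03 and 43.0 ± 5.33 CPM (SD, n = 6 each). The log2 difference was 1.59 (SE 0.08), or 3.01-fold, rank 103 of the genes tested, and it was 1.55 with SK-124 mice 1 to 3 alone and 1.63 with mice 4 to 6 alone.

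Of the apoptosis genes of the set, *Bbc3* was called, *Bax* was not and *Eda2r* was not tested. *Bbc3* (chr7:16308393-16318205, plus strand) encodes PUMA, a BH3-only protein, and had 1.52, 1.69 and 3.11 CPM in vehicle mice and 2.98, 3.23 and 4.36 CPM in SK-124 mice. Vehicle mouse 1, the highest of its group, reached into the SK-124 range, and 3 of 6 SK-124 mice lay above all vehicle mice. The log2 difference was 0.79 (SE 0.17), from 32 to 63 counts in vehicle mice and 51 to 88 in SK-124 mice. *Bax* (chr7:45461697-45466898, minus strand), the mitochondrial effector of apoptosis, had 12.1, 13.7 and 18.2 CPM in vehicle mice and 12.3, 13.5 and 15.2 CPM in SK-124 mice. Its SK-124 range lay inside its vehicle range, with a log2 difference of -0.065 (SE 0.09). *Eda2r*, a death receptor for ectodysplasin A2, was near the limit of these libraries, with 1 to 5 counts in vehicle mice and 2 to 5 in SK-124 mice. A small difference would be missed at this depth, and without the filter its log2 difference was 0.34 (SE 0.48).

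The remaining targets were level or lower. *Phlda3* (chr1:135766119-135769136, plus strand), an inhibitor of AKT, had 2.37, 2.56 and 3.93 CPM in vehicle mice and 1.04, 1.96 and 2.63 CPM in SK-124 mice. In 5 of 6 SK-124 mice it was below all vehicle mice, a log2 difference of -0.59 (SE 0.20) from 18 to 77 counts per mouse. Its call lay near the limit and was lost in some of the fits with fewer mice. These were the fits without vehicle mouse 3 (-0.47) or 6 (-0.57), and without SK-124 mouse 1 (-0.47), 2 (-0.58) or 6 (-0.51). It was also lost with SK-124 mice 1 to 3 alone (-0.61) or 4 to 6 alone (-0.57). *Zmat3* (chr3:32334792-32366014, minus strand), an RNA-binding protein that p53 raises, had 6.86, 8.44 and 10.2 CPM in vehicle mice and 6.63, 7.72 and 8.67 CPM in SK-124 mice, overlapping ranges with a log2 difference of -0.13 (SE 0.10).

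Levels between genes were compared as TPM, which divides by transcript length. In vehicle mice *Ccng1* was first with 43.9 ± 3.66 TPM (SD, n = 6), followed by *Bax* (18.03), *Trp53* (16.05), *Mdm2* (10.3), *Cdkn1a* (5.24), *Trp53inp1* (2.65), *Phlda3* (2.10), *Bbc3* (1.52), *Zmat3* (1.06) and *Eda2r* (0.033). Neighbours whose ranges over mice overlapped were *Bax* and *Trp53*, and each pair of neighbours from *Trp53inp1* to *Zmat3*. In SK-124 mice *Cdkn1a* came first with 51.5 ± 12.9 TPM (SD, n = 6), although its range overlapped that of *Ccng1* (39.6 ± 5.69 TPM), and *Bax* (15.8), *Trp53* (12.5), *Mdm2* (10.5), *Trp53inp1* (7.18), *Bbc3* (2.36), *Phlda3* (1.26), *Zmat3* (0.877) and *Eda2r* (0.037) followed. Ranges of neighbours also overlapped from *Bax* to *Trp53inp1*, pair by pair, and between *Phlda3* and *Zmat3*. *Cdkn1a* thus moved from the fifth place to the top, and *Bbc3* passed *Phlda3*.

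*Cdkn1a* made up 4.42% to 5.68% of the summed TPM of the 10 genes in vehicle mice (median 5.31%) and 30.2% to 39.6% in SK-124 mice (median 37.2%). The other 9 genes together summed to 95.6 ± 5.36 TPM in vehicle mice and 90.02 ± 11.3 TPM in SK-124 mice (SD, n = 6 each). Their sum ranged from 88.6 to 105 TPM in the first group and from 78.9 to 104 TPM in the second, while *Cdkn1a* alone went from 5.24 to 51.5 TPM. TPM have no TMM factor, and the direction of this sum depended on the scale. In TMM-corrected CPM the other 9 genes summed to 237, 254 and 258 in vehicle mice (lowest, median and highest). In SK-124 mice they summed to 246, 285 and 300 CPM, so the ranges overlapped with a higher median.

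**Figure D2:**
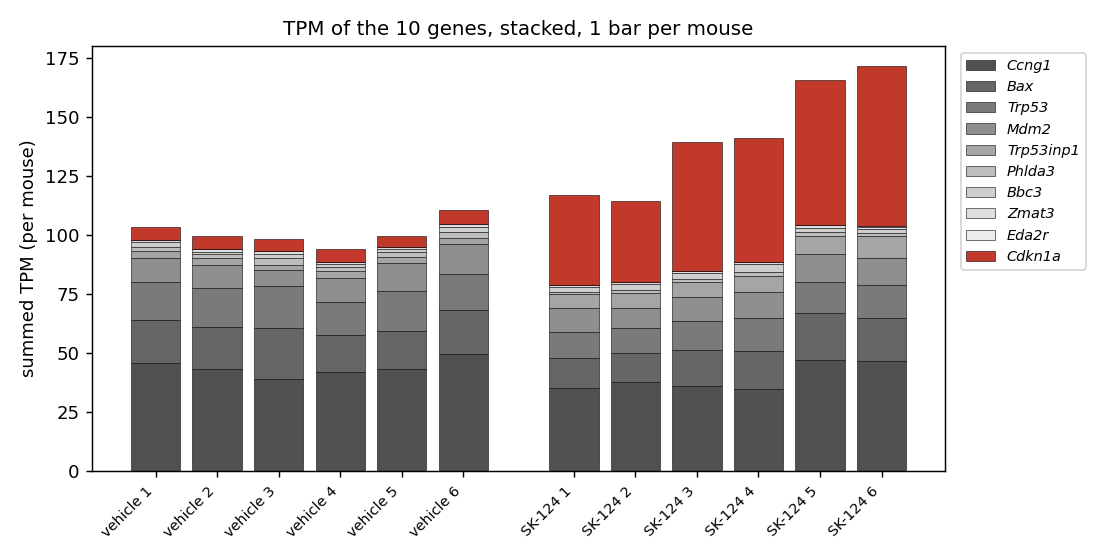
Summed TPM of the 10 genes (y axis) in each of the 12 mice (x axis), with *Cdkn1a* in red and the other 9 genes in greys. On this scale, which has no TMM factor, the grey part is of like height in both groups (88.6 to 105 TPM in vehicle and 78.9 to 104 TPM in SK-124 mice). The red part grows from 5.24 to 51.5 TPM on average.

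A wider list of 39 further p53 targets was read in the same fit, with the list drawn up while some results of these data were known, *Plk3*, *Btg2* and *Ddit4* among them. Of its 36 genes tested, 8 rose, 2 fell and 26 did not pass, with a median log2 difference of 0.00050. Among all genes tested 10.8% were called higher and 13.5% lower (24.4% together), with a median of -0.0050. By role, of 9 genes of growth arrest and stress sensing tested, 6 rose and 3 did not pass, with a median log2 difference of 0.95, and of the other 27, *Fas* and *Ercc5* rose and *Pmaip1* and *Ak1* fell. *Plk3*, *Btg2* and *Ddit4* make up 3 of those 6, so the count for this role is not independent evidence, and no enrichment was tested.

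Among the arrest and stress genes, *Ddit4*, which encodes the mTORC1 inhibitor REDD1, had 4.21, 4.95 and 5.65 CPM in vehicle mice and 70.0, 84.7 and 108 CPM in SK-124 mice (log2 difference 4.15, SE 0.12, FDR = 4.64e-13, edgeR's quasi-likelihood test). *Plk3*, a stress-responsive Polo-like kinase, had 3.27, 5.97 and 11.5 CPM in vehicle mice and 21.2, 64.0 and 69.7 CPM in SK-124 mice (3.07, SE 0.29, FDR = 4.85e-07). The groups did not overlap for either gene, as for 6.32% of all genes tested with SK-124 higher, and SK-124 mouse 1 was the low value of *Plk3*.

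*Sesn2* and *Sesn1* encode sestrins, which restrain mTORC1 and oxidative damage. *Sesn2* had 41.3, 45.3 and 50.9 CPM in vehicle mice and 153, 166 and 189 CPM in SK-124 mice (log2 difference 1.87, SE 0.07, FDR = 5.97e-12, edgeR's quasi-likelihood test), and *Sesn1* had 7.05, 8.58 and 10.5 against 14.3, 16.1 and 20.5 CPM (0.95, SE 0.10, FDR = 3.03e-06). *Btg2*, an antiproliferative cofactor of mRNA deadenylation, had 5.85, 7.55 and 18.6 CPM in vehicle mice and 19.1, 26.4 and 39.9 CPM in SK-124 mice (1.62, SE 0.25, FDR = 0.000112). The groups of these 3 genes did not overlap, again beside 6.32% of all genes tested, with vehicle mouse 5 close below the SK-124 mice for *Btg2*.

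*Gadd45a*, a damage-inducible regulator of the cell cycle and stress kinases, rose less (log2 difference 0.34, SE 0.08, FDR = 0.0069, edgeR's quasi-likelihood test), and its call was lost with library totals, on the TPM scale and with SK-124 mice 1 to 3 alone. *Plk2* (0.0075, SE 0.16), *Rps27l* (0.02, SE 0.09) and *Gtse1* (-0.086, SE 0.25) did not pass, and *Psrc1* was too low to test. With strand not stated, reads of *Plk3* cannot be told from those of *Tctex1d4*, which overlaps it on the other strand, and the same holds for *Gadd45a* and the noncoding gene E230016M11Rik, while *Sesn2* and *Sesn1* each overlap a noncoding or unconfirmed gene on their own strand.

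Of 9 further apoptosis genes tested, *Fas*, the death receptor, rose (log2 difference 0.50, SE 0.10, FDR = 0.0011, edgeR's quasi-likelihood test) and *Pmaip1*, the BH3-only gene for NOXA, fell by 0.76 on the log2 scale (SE 0.15, FDR = 0.00121). *Perp* (0.073, SE 0.06), *Aen* (0.0012, SE 0.08) and *Apaf1* (-0.28, SE 0.17) did not pass. Of 6 DNA repair genes, the excision repair nuclease *Ercc5* rose (0.50, SE 0.08, FDR = 0.00016), and *Rrm2b*, the p53-inducible ribonucleotide reductase subunit, did not pass (-0.0060, SE 0.08). Of 12 genes of metabolism and other roles, *Ak1*, adenylate kinase, fell by 0.80 (SE 0.09, FDR = 4.11e-06), and *Gdf15*, a stress cytokine, did not pass (0.21, SE 0.21). The calls of *Fas* and *Ercc5* were lost on the TPM scale.

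**Figure D3:**
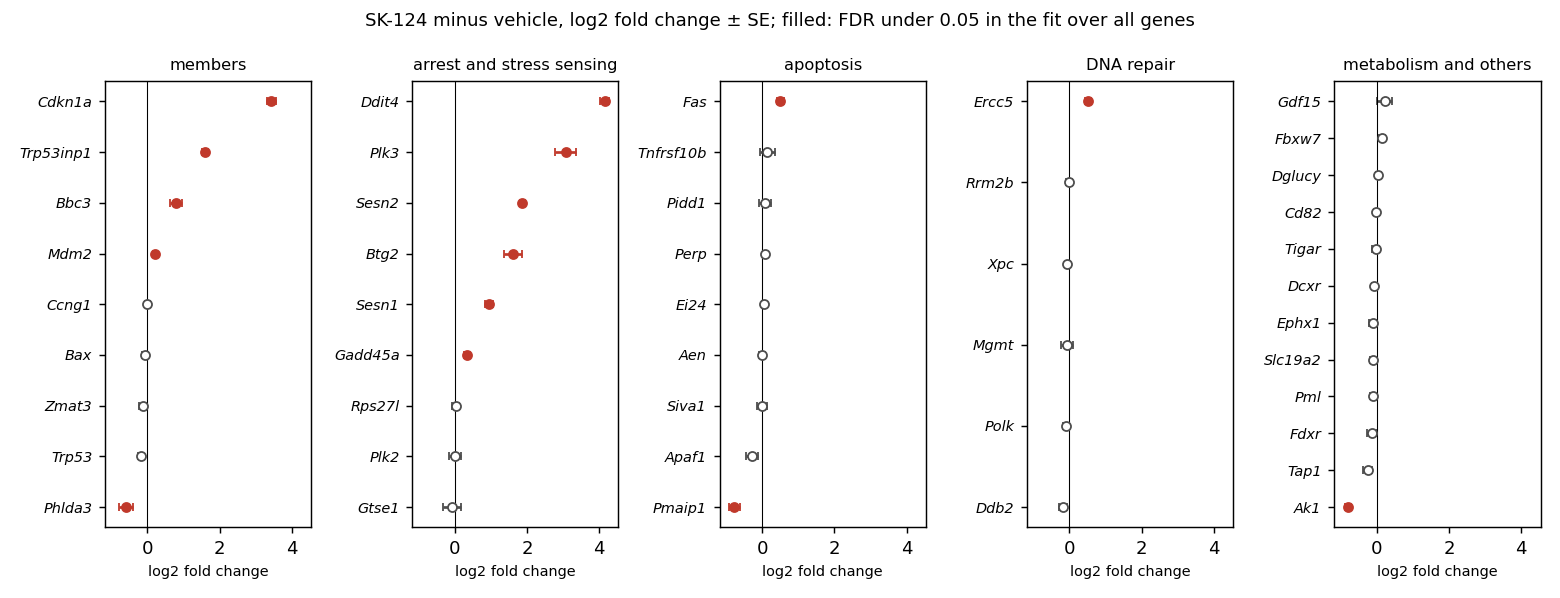
Log2 difference, SK-124 minus vehicle, with its SE (x axis) for the 9 genes of the set that were tested and for the 36 further p53 targets tested, 1 panel per role, where filled points have an FDR under 0.05. In the panel of arrest and stress sensing 6 of 9 points are filled, 3 of them (*Plk3*, *Btg2* and *Ddit4*) known to be high when the list was made, and the points for apoptosis, DNA repair and metabolism lie mostly near 0.

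Upstream of p53, of 13 regulators and relatives tested, 1 rose and 1 fell, beside 10.8% higher and 13.5% lower among all genes tested. The deacetylase gene *Sirt1*, whose product acts on p53, rose (log2 difference 0.23, SE 0.07, FDR = 0.0171, edgeR's quasi-likelihood test), and *Chek2*, a checkpoint kinase that phosphorylates p53, fell by 0.50 (SE 0.13, FDR = 0.00786). *Mdm4*, the partner of MDM2, was at -0.023 (SE 0.07), *Atm* at 0.018 (SE 0.14) and *Ppm1d*, a phosphatase that p53 also raises, at 0.062 (SE 0.08), none of which passed. These are RNA levels, and neither p53 protein nor its modification was measured here.

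Of 5 other inhibitors of cyclin-dependent kinases tested, 2 rose, beside 10.8% of all genes. *Cdkn2b*, for p15, had 0.562, 0.894 and 1.23 CPM in vehicle mice and 1.99, 2.92 and 4.85 CPM in SK-124 mice (log2 difference 1.78, SE 0.23, FDR = 1.65e-05, edgeR's quasi-likelihood test). *Cdkn1b*, for p27, rose by 0.32 (SE 0.06, FDR = 0.00115), with overlapping groups. Of 13 partners of p21 tested, 1 rose and 2 fell, beside 10.8% and 13.5% of all genes. *Pcna*, the replication clamp, rose by 0.26 (SE 0.05, FDR = 0.00146), while cyclin D1 (*Ccnd1*) fell by 0.94 (SE 0.09, FDR = 3.28e-07) and the RB relative *Rbl1* fell by 0.53 (SE 0.11, FDR = 0.00151). *Ccnd1* had 89.8, 106 and 127 CPM in vehicle mice and 46.5, 56.5 and 64.0 CPM in SK-124 mice, with no overlap.

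Few genes of the cell cycle that p53 and p21 are known to lower were called in either direction. Of 15 tested, *Mcm6*, a subunit of the replicative helicase, fell by 0.29 (SE 0.09, FDR = 0.0318, edgeR's quasi-likelihood test), *Aurka*, a mitotic kinase, rose by 0.73 (SE 0.26, FDR = 0.0474) and 13 did not pass, beside 24.4% of all genes called. The median log2 difference was 0.10. Summed over the 16 genes listed, the level was 44.1, 46.6 and 49.9 CPM in vehicle mice and 38.2, 43.7 and 58.1 CPM in SK-124 mice. The ranges overlapped, with a lower median in SK-124 mice, so the list has no single direction. Some of these genes had few counts, as *Cdk1* with 11 to 28 in vehicle and 8 to 26 in SK-124 mice, so a small fall would be missed. *Mki67* had 5.01, 6.33 and 9.09 CPM in vehicle mice and 4.70, 6.74 and 9.63 CPM in SK-124 mice.

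Of 24 factors and cofactors other than p53 that are known to act on *Cdkn1a*, all tested, 11 rose and 4 fell, a share of 62.5% beside 24.4% of all genes. This list too was drawn up with earlier results of these data known. Its share is therefore not independent evidence, and no enrichment was tested. *Cebpd* and *Cebpb*, C/EBP factors that bind promoters in stress and differentiation, rose most of the list. *Cebpd* had 3.47, 3.64 and 6.93 CPM in vehicle mice and 44.2, 54.7 and 73.5 CPM in SK-124 mice (log2 difference 3.76, SE 0.18, FDR = 1.41e-10, edgeR's quasi-likelihood test). *Cebpb* rose by 2.02 (SE 0.13, FDR = 7.31e-09) and *Cebpa* fell by 1.05 (SE 0.09, FDR = 1.55e-07). *Foxo3*, a forkhead factor restrained by AKT, rose from a median of 41.9 to 125 CPM (1.601, SE 0.08, FDR = 1.41e-10).

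Of the same list, *Klf6*, *Stat3*, *Klf9*, *Klf4*, *Sp3*, *Stat5a*, *Foxo1* and *Stat5b* also rose, by 0.33 (*Stat5b*) to 1.14 (*Klf6*), and the glucocorticoid receptor gene *Nr3c1*, the vitamin D receptor gene *Vdr* and *Smad3* fell by 0.62, 0.50 and 0.36. *Crtc2* (-0.016, SE 0.06) and *Creb1* (-0.044, SE 0.08), for the coactivator that SIKs phosphorylate and its DNA-binding partner, did not pass, and neither did *Myc* (0.091, SE 0.12), a repressor of *Cdkn1a*. *Cebpb* and *Cebpd* each overlap a gene on the other strand. Whether any of these factors acts on *Cdkn1a* in these mice was not tested.

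**Figure D4:**
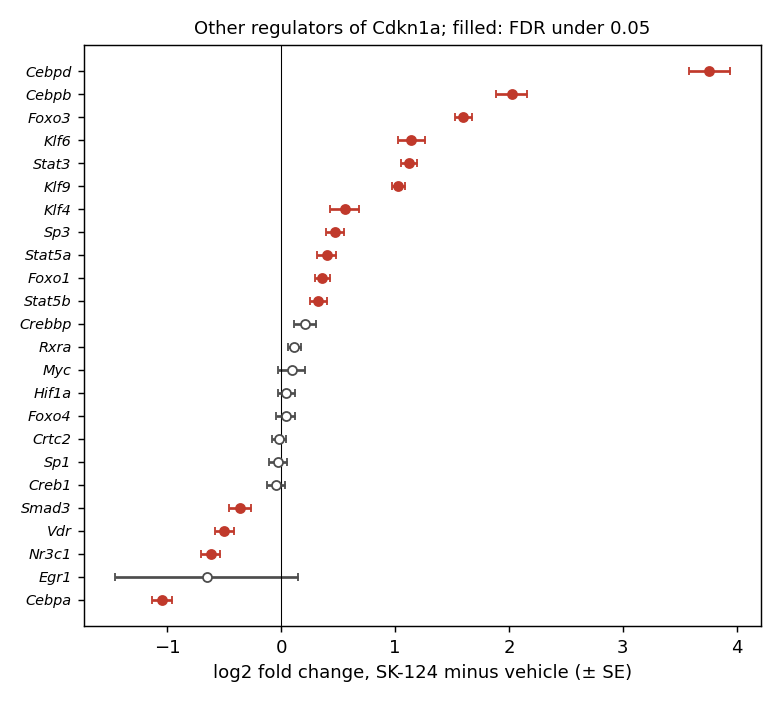
Log2 difference, SK-124 minus vehicle, with its SE (x axis) for 24 regulators of *Cdkn1a* other than p53, where filled points have an FDR under 0.05. *Cebpd* lies farthest to the right at 3.76, 11 filled points are above 0 and 4 are below, with *Cebpa* lowest at -1.05. The list was drawn up with earlier results of these data known.

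*Cdkn1a* is raised in injured tubules, and cell types can differ in their level of p53 targets, so marker genes were read beside it. Of 8 tubular injury genes tested, 4 rose, beside 10.8% of all genes: *Lcn2* by 0.88, *Vcam1* by 0.63, *Spp1* by 0.36 and *Clu* by 0.29, each with overlapping groups, and *Havcr1*, the gene for KIM-1, did not pass (0.33, SE 0.20). Their summed level was 652 to 722 CPM in vehicle mice and 733 to 1053 CPM in SK-124 mice. The 6 proximal tubule markers did not pass edgeR's quasi-likelihood test, with *Slc34a1*, the phosphate transporter, at -0.069 (SE 0.07) and *Lrp2*, the receptor megalin, at -0.085 (SE 0.09). The falls in the lists that follow stand beside 13.5% of all genes tested called lower. Of 4 stroma markers 2 fell (*Pdgfrb* and *Col1a2*, the sum being 110 to 171 CPM in vehicle and 75.6 to 131 CPM in SK-124 mice), and of 4 endothelial markers *Kdr* fell (120 to 173 and 99.8 to 173 CPM). In both lists 1 marker had groups that did not overlap, with SK-124 lower, beside 6.65% of all genes tested. Of 5 macrophage markers *Cd68* fell (56.3 to 74.4 and 60.5 to 76.1 CPM), and of 5 lymphocyte markers 3 were too low to test and *Cd79a*, of B cells, fell by 1.75 (SE 0.32, FDR = 0.000627, edgeR's quasi-likelihood test), their sum being 5.401 to 6.40 CPM in vehicle and 3.11 to 4.63 CPM in SK-124 mice, with no overlap. Of 4 collecting duct markers, *Aqp2* rose by 0.75 with overlapping groups, and *Hsd11b2* and *Slc4a1* fell by 0.35 and 0.59 with none (sums 278 to 342 and 276 to 394 CPM). *Cldn16*, 1 of 3 markers of the thick ascending limb, rose by 0.50 with no overlap (2164 to 3137 and 2713 to 3352 CPM). Of 4 podocyte markers 1 rose, with overlapping groups, and 3 did not pass (sums 209 to 328 and 225 to 273 CPM). The 3 distal convoluted tubule and 3 red blood cell markers did not pass, and 2 of 3 adrenal and 2 of 3 fat markers were too low to test. The part of these genes or cells in the level of *Cdkn1a* was not tested. In whole kidney, fewer cells of a type and less RNA per cell cannot be told apart.

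Within a group, where the treatment is the same, *Cdkn1a* was set against each of the 9 other genes over the 6 mice on log2(CPM + 0.5), a measure that the choice of genes did not use. On this scale, of the 18 relations, 0 had an unadjusted p under 0.05 in a two-sided exact permutation test, for r or for Spearman's rho, and the smallest adjusted p over the 18 was 0.975. The largest r was with *Bax* in SK-124 mice (r = 0.81, exact permutation p = 0.0736, rho = 0.77, p = 0.103), and r was 0.66 without the 2 mice farthest from the median of *Cdkn1a*. The next was with *Ccng1* in vehicle mice (r = 0.70, exact permutation p = 0.108, rho = 0.49, p = 0.356, and 0.51 without 2 mice). *Trp53inp1* gave r = 0.63 in vehicle mice (exact permutation p = 0.164) and 0.38 in SK-124 mice (exact permutation p = 0.474). The relations depended on the scale. On log2(TPM + 0.5), which has no TMM factor, 3 of 18 had an unadjusted p under 0.05, all in SK-124 mice, namely *Bax* (r = 0.94, exact permutation p = 0.0139, rho = 0.89, p = 0.0333), *Trp53* (r = 0.89, exact permutation p = 0.0375, rho = 0.60, p = 0.242) and *Mdm2* (r = 0.83, exact permutation p = 0.0375, rho = 0.77, p = 0.103), and 0 of 18 passed after adjustment (smallest adjusted p 0.225). Without the 2 mice farthest from the median of *Cdkn1a*, these r were 0.74, 0.25 and 0.64. Sets of 3 SK-124 mice hold too few for a value of their own.

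The genes whose pattern over the 12 mice lay nearest to that of *Cdkn1a* were not p53 targets of these lists. The measure was the root mean square difference of log2(CPM + 0.5), each gene less its own vehicle mean, over the 13008 genes tested whose mean reached 1 CPM. It uses the difference between the groups, so it is a description. The nearest were *Tmem252* at 0.23, *Noct*, a circadian deadenylase-like phosphatase, at 0.34, the orphan receptor gene *Nr4a3* at 0.39, the translation repressor gene *Eif4ebp3* at 0.40 and *Cebpd* at 0.41. *Tmem252* had 80.3, 89.1 and 113 CPM in vehicle mice and 817, 1044 and 1164 CPM in SK-124 mice. With a pseudocount of 0.1 in place of 0.5, 2 of these 5 genes stayed among the nearest 5 (*Tmem252* and *Noct*), and with 1, 4 did, all but *Nr4a3*. *Nr4a3* was near the floor in vehicle mice, with 0 to 6 counts. Its log2 difference in the fit was 5.20 (SE 0.32), against 3.43 for *Cdkn1a*, so its place among the nearest rests on the pseudocount of 0.5. Among p53 targets, *Ddit4* stood at place 11, *Plk3* at 14, *Sesn2* at 42, *Trp53inp1* at 66, *Btg2* at 72, *Sesn1* at 206, *Bbc3* at 325 and *Mdm2* at 1555.

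**Figure D5:**
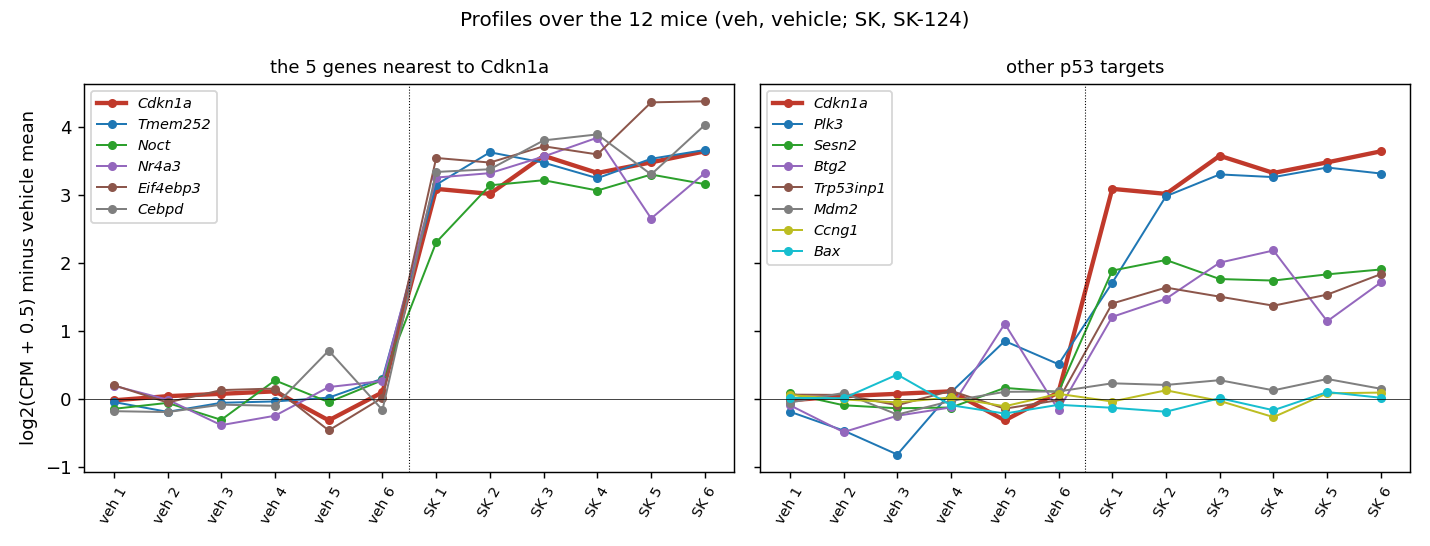
Log2(CPM + 0.5) less the vehicle mean of each gene (y axis) in 6 vehicle and 6 SK-124 mice (x axis), for *Cdkn1a* (thick red) with the 5 genes nearest to it (left) and with other p53 targets (right). The left-hand genes lie close to *Cdkn1a* in the SK-124 mice (root mean square differences of 0.23 to 0.41). On the right *Plk3* (0.63), *Sesn2* (1.09), *Trp53inp1* (1.29) and *Btg2* (1.33) are also higher in the SK-124 mice, while *Mdm2*, *Ccng1* and *Bax* stay near 0. *Ddit4* (0.51), the nearest p53 target of the lists, is not drawn.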

How the data were processed

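Whole-kidney RNA-Seq of 6 vehicle and 6 SK-124 mice was used, 1 BGISEQ library per mouse, grouped by the labels' treatment field. The submitters' processing notes name FastQC, STAR 2.7.2b, RSEM 1.3.0, DESeq2 and mm10, and the strand setting and the time of collection for these libraries were not given in the sources used here. The authors deposited an RSEM gene table per mouse, holding expected counts (estimated reads per gene, not normalized), TPM (scaled by transcript length and library) and the abundance-weighted transcript length, and all 3 were read. Symbols and coordinates come from GENCODE M21 (GRCm38), in which 54349 of the 55401 identifiers were found in the same version.

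After rounding, expected counts were filtered (filterByExpr) and TMM-scaled, the groups were compared by the quasi-likelihood test of edgeR (4.0.16, in R 4.3.3), and p-values were adjusted by Benjamini-Hochberg over all 14159 genes tested. The SE is the log2 difference divided by the square root of F. The biological coefficient of variation was 0.101. The fit was tested on simulated counts with this same variation for every gene and with few genes changed, equally up and down. That test therefore does not bear on the calls that depend on the scaling. Library totals were alike, so depth limits genes with few counts. For each of 30 pairs of mice of a group, counts differed by more than sampling noise (chi-square over its degrees of freedom at least 4.72). The labels name no batch. Python 3.11.15, numpy 2.4.6, pandas 2.3.3, scipy 1.17.1 and matplotlib 3.10.9 served the rest.

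The 10 genes and all lists were chosen with earlier results of these data known. Genes named are the 10, all further p53 targets past an FDR of 0.05, up to 4 of each other list with the largest difference among those past it whose mean reached 1 CPM, and the 5 nearest to *Cdkn1a*. Other genes named were picked with their values in view. The alternatives tried were DESeq2 1.42.0, limma 3.58.1 on log2(TPM + 1) and on log2(TPM + 0.1), RLE factors or library totals, other count filters, unrounded counts, robust dispersion, a replicate block, leaving out each mouse, and using SK-124 mice 1 to 3 or 4 to 6 alone.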

Additional observations from a re-analysis of the deposited data

Results flagged for a closer look

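In the 10 genes and 10 others named with them, each group of 6 mice was searched for a mouse far from its group, its gap to the nearest other mouse being large beside the range of the group (Dixon's 95% limit). Of 40 groups searched, 5 had such a mouse, where chance gives about 1 in 20, or 2. *Cdkn1a* was at 7.64 CPM in vehicle mouse 5, below the 9.48 to 10.4 CPM of the other vehicle mice. *Btg2* was at 18.6 CPM in the same mouse, above the others' 5.85 to 7.85 CPM. *Bax* was at 18.2 CPM in vehicle mouse 3, above 12.1 to 14.3 CPM. *Bbc3* was at 4.36 CPM in SK-124 mouse 4, above 2.98 to 3.42 CPM. *Plk3* was at 21.2 CPM in SK-124 mouse 1, below 51.9 to 69.7 CPM but above every vehicle mouse.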

How the results depend on the processing

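Over the 24 alternatives, the log2 difference of *Cdkn1a* ran from 3.04 to 3.55. Its calls are not counted here, since the genes were chosen on this difference. Leaving out each mouse in turn gave 3.37 to 3.50 for *Cdkn1a*, 3 to 4 calls among the other genes of the set, 8 to 8 further p53 targets higher and 2 to 3 lower. With SK-124 mice 1 to 3 alone or 4 to 6 alone, 2 of the other genes were called in each, in place of 4, and with limma on log2(TPM + 1) or on log2(TPM + 0.1), 5 further p53 targets were higher, in place of 8. On these TPM scales the median of all genes moved to -0.11 and -0.14 and the calls to 500 higher and 2130 lower, and 498 and 2118. On log2(TPM + 0.5), r with *Cdkn1a* changed sign for *Mdm2* (-0.36 to 0.034) and *Trp53* (0.096 to -0.37) in vehicle mice and for *Bbc3* (0.013 to -0.42) in SK-124 mice, and r in SK-124 mice was higher for *Mdm2* (0.83, against 0.072), *Trp53* (0.89, 0.40), *Zmat3* (0.81, 0.27), *Trp53inp1* (0.77, 0.38), *Ccng1* (0.66, 0.032) and *Bax* (0.94, 0.81), with 0.225 as the smallest adjusted p, against 0.975. The cause was not tested for any of these. Without a filter, *Eda2r* had a log2 difference of 0.34 (SE 0.48).

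Replicate numbers are shared between the groups but belong to different mice, and same-numbered mice did not deviate together, with r from -0.13 to 0.22 over the 6 numbers. The fit with the replicate block gave 3466 calls over all genes, against 3453, and all 14 calls of p53 targets were shared. Depth limits *Eda2r* (at most 5 counts), *Phlda3* and *Bbc3*.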
